A study of Homo sapiens with 6 samples.

Results

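The genes described here are 60 genes that act in mitosis or are repressed by the DREAM complex. They were chosen by symbol, from what their products are known to do, and with earlier results of these data known. All 60 were found among the 22354 loci of the count table, and all 60 were among the 14860 loci that had enough reads for testing. They were divided by function into 8 roles, from the cyclins and CDK1 to the factors that switch mitotic genes on. The question was whether a higher level of CDKN1A, which encodes p21, went with lower levels of these genes.

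The RNA came from HTori-3.1, an immortalised line of human thyroid epithelial cells. Of the 6 libraries, 3 are labelled control with a wild-type genotype and 3 are labelled as edited with an sgRNA against BMAL1, the clock transcription factor. The edited cells received lentivirus with Cas9 and the sgRNA, were selected with puromycin and were taken through single clones, so that clone and genotype cannot be told apart. Cells of both groups were treated with etoposide, a topoisomerase II poison that breaks DNA, at 2 µM, for 12 h by the treatment field of the labels and for 24 h by the protocol. No untreated culture was analysed here, and all differences below are between groups that had both been exposed. The labels number the replicates without saying that they were separate cultures, so p-values measure the spread between these libraries, which may be technical. The total counts were 26893063, 27029060 and 28513703 for control replicates 1 to 3. They were 43148059, 29860233 and 43563391 for replicates 1 to 3 of the edited cells. The spread between replicates of a group corresponded to a biological coefficient of variation of 0.108. Levels are given as CPM after TMM scaling, and differences as log2 fold changes of the edited over the control libraries.

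Cells enter mitosis when CDK1 bound to cyclin B is freed of its inhibitory phosphates by CDC25 phosphatases, and they leave it when the anaphase-promoting complex destroys cyclin B and securin. The genes for this machinery are transcribed late in the cell cycle, when the MuvB core binds B-MYB and FOXM1 at a promoter element called the CHR. When p21 rises, cyclin-dependent kinases are inhibited, the pocket proteins p107 and p130 stay unphosphorylated, and they join E2F4 and the same MuvB core as DREAM, which holds these genes off.

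The transcript of the edited gene itself went against the label. BMAL1 was measured at 11.3, 12.2 and 14.6 CPM in the control libraries and at 17.9, 19.8 and 19.4 CPM in the edited ones. All 3 edited libraries lay above all 3 control libraries. The log2 fold change of BMAL1 was 0.58 (SE 0.11; edgeR, adjusted p = 0.0204), and the group is therefore called the libraries labelled BMAL1 knockout, or labelled knockout for short. The study's methods name a western blot as the check of the edit, and protein is not among the data analysed here. The adjusted p of BMAL1 stayed under 0.05 without control replicate 3 (edgeR, 0.0277) or labelled-knockout replicate 1 (0.0168). It was 0.0896 without control replicate 1, 0.113 without control replicate 2, 0.0749 without labelled-knockout replicate 2 and 0.0598 without replicate 3.

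Of 8 thyroid markers, only PAX8 and FOXE1 had enough reads to be tested, at group means of 133 and 48.0 CPM in the control libraries and 110 and 40.0 CPM in the labelled-knockout libraries. TG, TSHR, SLC5A5 and DIO1 were under the filter and NKX2-1 had no reads in any library, so the defining genes of hormone synthesis were largely absent. The whole list summed to 173, 174 and 201 CPM in the control libraries and 129, 149 and 173 CPM in the labelled-knockout libraries. The epithelial keratins KRT8, KRT18 and KRT7 were abundant, with KRT8 at a mean of 1282 CPM, while EPCAM and CDH1 lay under 1 CPM. Of 6 epithelial markers 5 were tested, 3 higher and 2 lower with a median of 0.10, and KRT18 was lower by a log2 fold change of -0.50 (edgeR, adjusted p = 0.00583; 0.0524 without control replicate 2). KRT18 and KRT8 share exons on opposite strands. The epithelial list summed to 2990, 3044 and 2897 CPM in the controls and 2540, 2482 and 2563 CPM in the labelled-knockout libraries.

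COL1A1, at a mean of 859.6 CPM, dominated a list of 8 fibroblast and muscle markers, of which DCN and LUM had no reads; 3 were tested, and ACTA2 was higher at 3.51 against 1.82 CPM (edgeR, adjusted p = 0.0188). Its adjusted p in edgeR was 0.0670, 0.0529 and 0.0785 without control replicates 1, 2 and 3 and 0.0657 without labelled-knockout replicate 2. That list summed to 906, 910 and 773 CPM in the controls and 704, 918 and 970 CPM in the labelled-knockout libraries. The 5 leukocyte markers summed to 19.05, 19.56 and 17.25 CPM in the control libraries and 13.8, 11.4 and 12.0 CPM in the labelled-knockout libraries. CD68 was the most abundant of them, CD3E had no reads, and PTPRC was lower at 2.36 against 6.40 CPM (edgeR, adjusted p = 0.00127). The 4 endothelial markers, led by VWF at 1.10 CPM, summed to 2.05, 1.83 and 2.21 CPM in the controls and 1.34, 1.24 and 1.72 CPM in the labelled-knockout libraries. The 2 C cell markers, with CALCA at 0, summed to 0.298, 0.187 and 0 CPM in the controls and 0.117, 0.164 and 0.135 CPM in the labelled-knockout libraries. The part of these marker shifts in the values below was not tested.

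CDKN1A lay higher in every labelled-knockout library. It was measured at 113, 109 and 88.9 CPM in the control libraries and at 127, 158 and 140 CPM in the labelled-knockout libraries. The groups did not overlap, with labelled-knockout replicate 1 the closest to the controls. Its log2 fold change was 0.45 (SE 0.11; edgeR, adjusted p = 0.0483), just under the threshold of 0.05. The call ended without control replicate 1 (edgeR, adjusted p = 0.0670), control replicate 2 (0.140), control replicate 3 (0.134), labelled-knockout replicate 2 (0.181) or labelled-knockout replicate 3 (0.0873). Without labelled-knockout replicate 1 it was 0.0160. When the quasi-likelihood fit was run without robust estimation, an alternative chosen after seeing the data, it was 0.0683. Over 19 alternatives, of which 1 gave the same values as reported, the adjusted p of CDKN1A ranged from 0.00177 to 0.181 and was under 0.05 in 11. CDKN1A overlaps DINOL on the opposite strand.

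CDKN1A stood in a list of 14 genes of the p21 axis, of which 13 were tested. This list too was chosen with earlier results of these data known. The median of their log2 fold changes was 0.39, beside 0.01 over all 14860 loci, and 10 lay higher and 3 lower. With 0.05 as the threshold for the adjusted p, 5 of the 13 rose and 0 fell (edgeR), where 1.08% of all loci were higher and 1.43% lower. BTG2, an antiproliferative gene, rose by 0.85 on the log2 scale, from 27.6 ± 2.20 to 49.5 ± 6.26 CPM (SD, n = 3; edgeR, adjusted p = 0.00233). MDM2, a ubiquitin ligase, rose by 0.48 (edgeR, adjusted p = 0.00745), GADD45A by 0.39 (0.0163) and CDKN2B, which encodes the kinase inhibitor p15, by 0.66 (0.0163). The call of BTG2 held in all 6 fits that left out a library. That of MDM2 ended without control replicate 2 (edgeR, adjusted p = 0.0652). That of GADD45A ended without control replicates 1, 2 or 3 (edgeR, adjusted p = 0.0944, 0.0819 and 0.0522) or labelled-knockout replicate 2 (0.0964). That of CDKN2B ended without control replicates 1, 2 or 3 (edgeR, adjusted p = 0.0547, 0.0742 and 0.0651) or labelled-knockout replicates 2 or 3 (0.0666 and 0.0559). Exons of MDM2 lie opposite those of CPM, a neighbouring gene.

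Across the 60 mitotic genes, values lay on both sides of 0 beside the higher CDKN1A. At an adjusted p under 0.05, 0 of 60 were lower and 0 were higher (edgeR), where 2.51% of all loci tested were called, 1.43% lower and 1.08% higher. DESeq2 called 3 of the 60, CDK1 and ZWINT higher and TACC3 lower, where it called 4.69% of all loci, and limma-voom called 0 of the 60 and 1.72% of all loci. At an unadjusted p under 0.05 in edgeR, 6 were lower and 2 higher, where 7.78% of all loci were lower and 9.08% higher. By direction alone, 32 lay higher and 28 lower. Their median log2 fold change was 0.02, beside 0.01 over all loci and -0.02 over the 7820 loci at least as abundant as the weakest of the 60. The whole range ran from -0.27 for INCENP to 0.44 for CDK1, and the median SE was 0.09. The groups did not overlap for 7 members that were lower in all labelled-knockout libraries and 5 that were higher. Over all loci these shares were 11.5% and 11.8%. The 7820 more abundant loci leaned lower, with 1154 lower and 618 higher without overlap, and by edgeR's unadjusted p under 0.05 there were 768 lower and 473 higher. In bulk RNA, fewer cells near mitosis and less transcript per cell cannot be told apart.

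**Figure D1:**
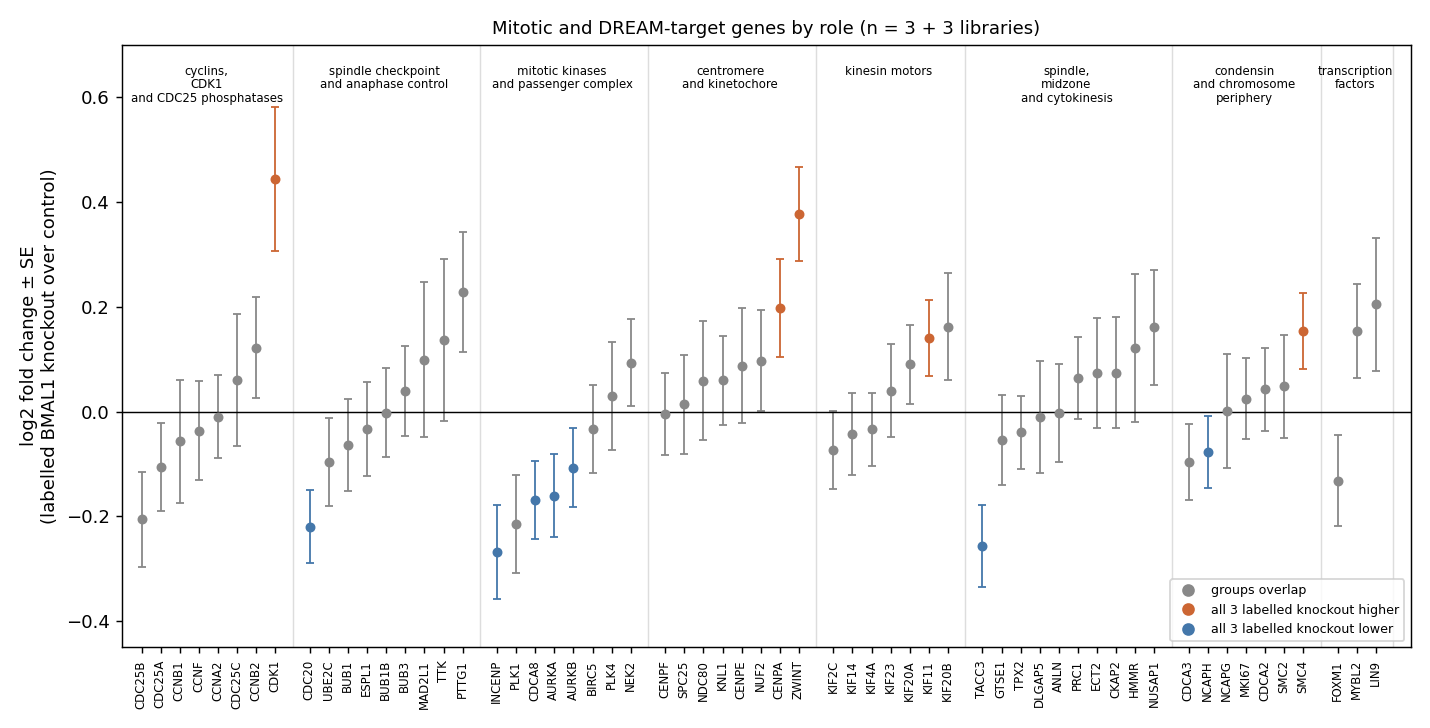
Log2 fold change of each of the 60 genes, labelled BMAL1 knockout over control (y axis, bars ± SE, 3 libraries a group), ordered within 8 roles along the x axis. Orange marks genes higher in all 3 labelled-knockout libraries and blue those lower in all 3; most values lie between -0.27 and 0.23, with CDK1 at 0.44 and ZWINT at 0.38.

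The mitotic genes were also set beside CDKN1A library by library. The 60 genes together took 13186, 13295 and 13320 CPM in the control libraries and 14418, 13207 and 12820 CPM in the labelled-knockout libraries. Labelled-knockout replicate 1 was the highest of all 6 and replicate 3 the lowest, with the controls between them. The group means were 13267 ± 71.3 and 13481 ± 834 CPM (SD, n = 3), so the difference was smaller than the spread within the labelled-knockout group. For each gene, the log2 deviation of a library from the mean of that gene was then taken. The median deviation of the 60 genes was -0.03, -0.0012 and 0.02 in the control libraries and 0.12, -0.03 and -0.07 in the labelled-knockout libraries. Among the 3 controls the order was the inverse of that of CDKN1A, with the lowest mitotic genes in replicate 1, where CDKN1A was highest. Labelled-knockout replicate 1, with the least CDKN1A of its group, had the highest mitotic genes of all 6 libraries. Replicate 2, with the most CDKN1A, lay within the range of the controls, above replicate 3. The inverse order of the controls and the high place of labelled-knockout replicate 1 held for the 30 members of lower GC content and not for the 30 of higher GC content. Those of lower GC content had medians of -0.07, -0.04 and 0.03 in the controls and 0.21, -0.04 and -0.09 in the labelled-knockout libraries. Those of higher GC content had 0.06, 0.06 and -0.02 in the controls and -0.05, 0.0077 and -0.04 in the labelled-knockout libraries, with labelled-knockout replicate 1 the lowest of all 6. The GC trend of each library moved with these orders, and its part in them was not tested.

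**Figure D2:**
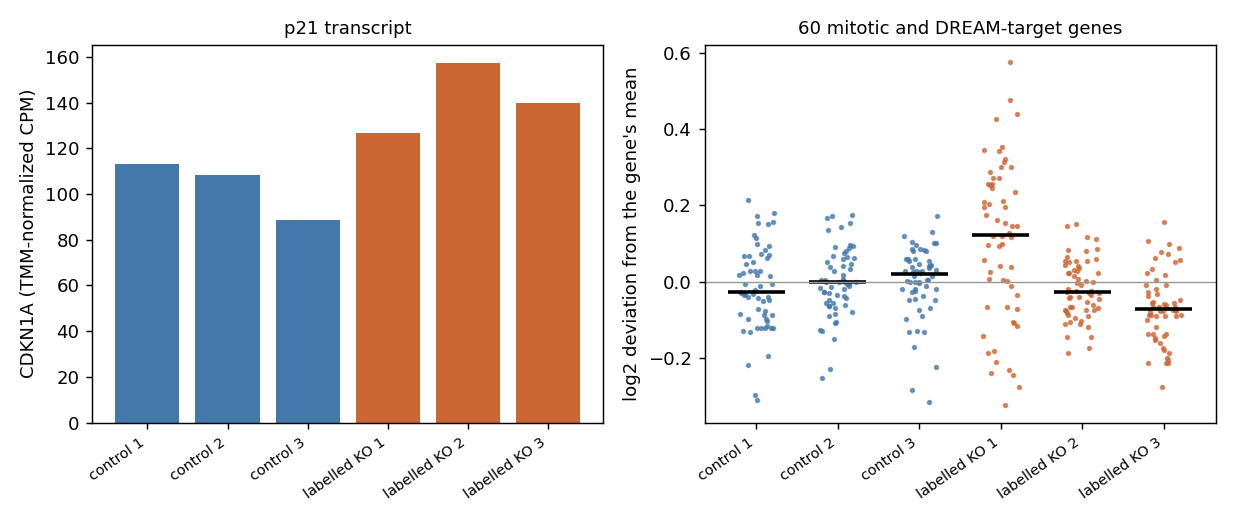
Left, CDKN1A in each of the 6 libraries (y axis, TMM-normalized CPM), from 88.9 in control replicate 3 to 158 in labelled-knockout (KO) replicate 2. Right, log2 deviation of each of the 60 genes from its own mean over the 6 libraries (points) with the median (line), which is 0.12 in labelled-knockout replicate 1 and between -0.07 and 0.02 in the other libraries.

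Most of the 60 genes shared short runs of letters near their starts. Promoter windows of 300 bases, 250 before and 50 after each start, were taken from RefSeq on GRCh38.p14. They were given for 51 of the 60; the others were BUB3, TTK, UBE2C, AURKA, BIRC5, KNL1, TPX2, CDCA2 and FOXM1. The letters of the CHR, TTTGAA on either strand, were in a window of 36 of these 51 genes, which is 70.6%, beside 13.8% of the 10903 tested loci with a promoter and 15.2% of all 35116 windows of the table. The CCAAT box, CCAAT on either strand, was in 38 of 51, or 74.5%, beside 42.7% of the tested loci and 34.6% of all windows. CHR and CCAAT letters were in the same window for 27 of 51, or 52.9%, beside 5.62% of the tested loci. In the window of the most upstream start, the CHR letters were present in 34 genes, began at a median position of -23 from the start, and lay within 50 bases of it in 29. A second form of the CHR, TTCGAA, was in 5 of 51, including BUB1, CDC25B and LIN9, beside 2.34% of the tested loci and 1.45% of all windows. E2F sites, written as TTTCCCGC, TTTCGCGC, TTTGCCGC or TTTGGCGC on either strand, were in 4 of 51, or 7.84%, beside 6.65% of the tested loci and 3.31% of all windows. The E-box CACGTG, the letters that BMAL1 with CLOCK is known to bind, was in 6 of 51, or 11.8%, beside 12.6% of the tested loci and 7.26% of all windows. The 6 were CCNB1, PLK1, CENPE, CENPF, ANLN and MYBL2. None of these letter strings contains another. A match is a description of letters and was not tested as a binding site.

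The stretches below show matches to the CHR and CCAAT letters in genes that the results turn on. CCNB2, CDK1, CDC20 and PLK1 have the CHR letters before the start, and ZWINT and KIF11 were added after their values were seen, because their groups did not overlap. Each is 100 bases of RefSeq sequence on GRCh38.p14, 5′ to 3′ on the strand of the gene, upstream of the start, with CHR and CCAAT letters in capitals; TTCAAA and ATTGG are the same letters read on the other strand. CCNB2 is chr15:59105026-59105125 (forward), CDK1 chr10:60778123-60778222 (forward), CDC20 chr1:43358881-43358980 (forward), PLK1 chr16:23678769-23678868 (forward), ZWINT chr10:56361274-56361373 (reverse) and KIF11 chr10:92593030-92593129 (forward). The stretch of PLK1 also lies in an exon of a further GENCODE transcript. That of CDK1 is before the first of its 2 starts, with the CHR letters beginning at -161 from that start. CCNB1 and CCNA2 have CCAAT but not TTTGAA in their windows.
CCNB2: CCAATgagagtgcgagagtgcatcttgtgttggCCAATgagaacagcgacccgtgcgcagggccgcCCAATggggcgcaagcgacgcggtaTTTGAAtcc
CDK1: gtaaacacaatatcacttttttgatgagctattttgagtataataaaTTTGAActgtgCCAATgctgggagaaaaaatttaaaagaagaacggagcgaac
CDC20: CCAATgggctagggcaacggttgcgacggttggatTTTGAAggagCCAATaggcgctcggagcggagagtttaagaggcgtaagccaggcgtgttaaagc
PLK1: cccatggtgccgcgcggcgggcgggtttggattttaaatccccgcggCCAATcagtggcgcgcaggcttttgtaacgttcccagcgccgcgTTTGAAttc
ZWINT: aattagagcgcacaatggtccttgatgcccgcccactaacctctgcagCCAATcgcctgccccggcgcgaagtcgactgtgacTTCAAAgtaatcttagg
KIF11: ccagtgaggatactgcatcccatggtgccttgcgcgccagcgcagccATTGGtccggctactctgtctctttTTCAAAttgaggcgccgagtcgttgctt

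The fold changes of genes with and without these letters are given side by side, and no difference was tested. Of the 36 members with the CHR letters 22 were higher and 14 lower, at a median of 0.03, and of the 15 without them 6 were higher and 9 lower, at a median of -0.06. Over the tested loci the medians were 0.02 with and 0.0077 without. Members with the E-box had a median of -0.0045 and those without it 0.03, while for CCAAT the medians were 0.0042 with and 0.06 without. The 4 members with E2F letters had a median of 0.18 and the 47 without them 0.01. Of 32 E2F and replication genes, a list beside the mitotic one, 27 had a promoter. CCAAT letters were in 18 of them, or 66.7%, E2F letters in 17, or 63.0%, and CHR letters in 2, or 7.41%. Of 56 further mitotic genes that are not among the 60, 46 had a promoter, and CHR letters were in 28, or 60.9%.

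**Figure D3:**
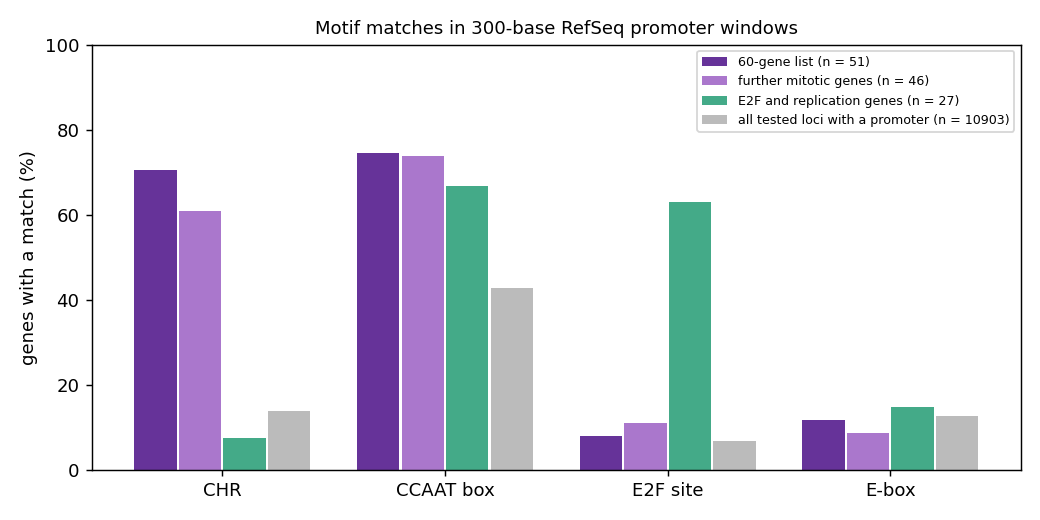
Share of genes with at least 1 match in their RefSeq promoter windows (y axis, percent) for 4 motifs, in the 60 mitotic and DREAM-target genes (51 with a promoter), 2 further lists and all tested loci. CHR letters were in 70.6% of the 60-gene list with a promoter and 13.8% of all tested loci, and E2F letters in 63.0% of the E2F and replication genes.

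The first role holds the kinase that drives mitosis, its cyclins and the phosphatases that release it. Of 8 genes 3 lay higher and 5 lower, with a median of -0.02. CDK1 (ENSG00000170312.17, chr10:60778331-60794852, forward strand) was measured at 217, 230 and 253 CPM in the control libraries and at 402, 279 and 270 CPM in the labelled-knockout libraries. Replicate 1 of the labelled-knockout group stood far above the rest, and its other replicates lay just above the controls. The log2 fold change was 0.44 (SE 0.14; edgeR, adjusted p = 0.122). Without labelled-knockout replicate 1 it was 0.23 (edgeR, adjusted p = 0.0896). CCNB1, the cyclin B that partners CDK1, was at 393, 386 and 376 CPM in the controls and 457, 329 and 323 CPM in the labelled-knockout libraries. Here replicate 1 was above every control and replicates 2 and 3 were below every control, so that the groups overlapped. With all libraries the log2 fold change of CCNB1 was -0.06 (SE 0.12; edgeR, adjusted p = 0.856). Without replicate 1 it was -0.24 (SE 0.05; edgeR, adjusted p = 0.0277). CCNB2, whose promoter stretch holds 3 CCAAT matches and 1 CHR match, had 0.12, or 0.03 without replicate 1. CCNA2, the S and G2 phase cyclin, had -0.0097, or -0.06 without that library. Of the phosphatases, CDC25B had -0.21 (edgeR, unadjusted p = 0.0423), CDC25A -0.11 and CDC25C 0.06, all with overlapping groups. Without labelled-knockout replicate 1, CDC25B had -0.13, CDC25A -0.05 and CDC25C -0.07. CCNA2 overlaps EXOSC9, and CDC25C overlaps FAM53C, on the opposite strand.

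The second role covers the spindle checkpoint, which delays anaphase until chromosomes are attached, and the proteins of anaphase itself. Of 9 genes 4 lay higher and 5 lower, with a median of -0.0020. CDC20, the activator of the anaphase-promoting complex, was at 279, 266 and 266 CPM in the controls and 233, 226 and 238 CPM in the labelled-knockout libraries. All labelled-knockout libraries lay below all controls, and the replicates of each group were close together. Its log2 fold change was -0.22 (SE 0.07; edgeR, unadjusted p = 0.00842, adjusted p = 0.128). PTTG1, the securin that holds separase until anaphase, had the highest value of the role, 0.23, or 0.10 without labelled-knockout replicate 1, with overlapping groups. MAD2L1, the checkpoint inhibitor of CDC20, was at 99.4, 103 and 117 CPM in the controls and at 147, 101 and 94.6 CPM in the labelled-knockout libraries. Again replicate 1 of the labelled-knockout group stood above the controls while its other replicates did not, and the log2 fold change was 0.10 (SE 0.15). TTK, the kinase that starts checkpoint signalling, chosen after its values were seen, was also highest in that library, with 134 CPM in replicate 1 and 85.4 and 87.0 in the others, below the 89.6 to 98.8 of the controls. BUB1 and BUB3, which build the checkpoint at kinetochores, had -0.06 and 0.04, or -0.17 and -0.06 without labelled-knockout replicate 1.

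Among mitotic kinases and the chromosomal passenger complex, the values leaned lower. Of 8 genes 6 were lower and 2 higher, the median was -0.13, and for 4 of them, AURKA, AURKB, INCENP and CDCA8, all labelled-knockout libraries lay below all controls, as they did for 11.5% of all loci. In edgeR 0 of the 8 were called and 3 were lower at an unadjusted p under 0.05, beside 7.78% of all loci, and DESeq2 and limma-voom called 0. The median of this role lay below 0 in all 19 alternatives, between -0.14 and -0.11. These all refit the same 6 libraries. Those that changed only the robust estimation repeated the reported fold changes, so their sign could not differ. INCENP (ENSG00000149503.13, chr11:62123998-62153169, forward strand), the scaffold of the passenger complex, was at 136, 135 and 125 CPM in the controls and at 95.7, 114 and 119 CPM in the labelled-knockout libraries. Replicate 1 was the lowest, and the lowest control was only slightly above the highest labelled-knockout library. INCENP thus had a log2 fold change of -0.27 (SE 0.09; edgeR, unadjusted p = 0.0119, adjusted p = 0.151). CDCA8, or borealin, named because of its values, was at 99.2, 95.2 and 88.8 CPM in the controls and 82.5, 84.5 and 84.9 CPM in the labelled-knockout libraries, a log2 fold change of -0.17 (SE 0.07; edgeR, adjusted p = 0.278). AURKB, the kinase of the complex, was at 50.2, 49.7 and 51.3 CPM in the controls and 46.4, 46.3 and 47.7 CPM in the labelled-knockout libraries, a log2 fold change of -0.11 (SE 0.08; edgeR, adjusted p = 0.509). CDCA8 lay at 89.0% and AURKB at 92.8% of the control level. BIRC5, or survivin, the remaining subunit, had overlapping groups and a log2 fold change of -0.03. AURKA, which matures centrosomes, was at 274, 282 and 283 CPM in the controls and 272, 249 and 230 CPM in the labelled-knockout libraries (log2 fold change -0.16, SE 0.08; edgeR, adjusted p = 0.332). PLK1, which acts from mitotic entry to cytokinesis, had -0.21 (edgeR, unadjusted p = 0.0405) with overlapping groups, and it overlaps ERN2 on the opposite strand. PLK4, which duplicates centrioles, and NEK2, which separates centrosomes, had 0.03 and 0.09. Without labelled-knockout replicate 1 they had -0.08 and 0.03.

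The centromere and kinetochore genes leaned the other way, with 7 of 8 higher and a median of 0.07. This lean depended on labelled-knockout replicate 1: without it 2 of 8 were higher and the median was -0.04. ZWINT (ENSG00000122952.17, chr10:56357227-56361273, reverse strand), a kinetochore protein that binds the KNL1 complex, was at 224, 220 and 200 CPM in the controls and at 312, 271 and 253 CPM in the labelled-knockout libraries. Every labelled-knockout library was above every control by a clear margin. Its log2 fold change was 0.38 (SE 0.09; edgeR, unadjusted p = 0.00128, adjusted p = 0.0504), the smallest adjusted p of the 60, just over the threshold. It passed the threshold in 9 of 19 alternatives, among them the edgeR fits without labelled-knockout replicate 1 (edgeR, adjusted p = 0.0325) or 3 (0.0406), and its adjusted p ranged from 0.00274 to 0.174. CENPA, the histone variant that marks centromeres, was at 33.2, 29.6 and 36.4 CPM in the controls and at 38.7, 37.0 and 38.1 CPM in the labelled-knockout libraries. The groups did not overlap, but control replicate 3 lay close to the labelled-knockout values. The log2 fold change of CENPA was 0.20 (SE 0.09; edgeR, adjusted p = 0.307); it shares exons with SLC35F6. CENPF, a large kinetochore protein of late G2, was at -0.0055, the lowest of the role with all libraries; without labelled-knockout replicate 1 NDC80 was the lowest, at -0.10. The others, CENPE, NDC80, NUF2, SPC25 and KNL1, lay between 0.01 and 0.10, and all 5 lay below 0 without that library.

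**Figure D4:**
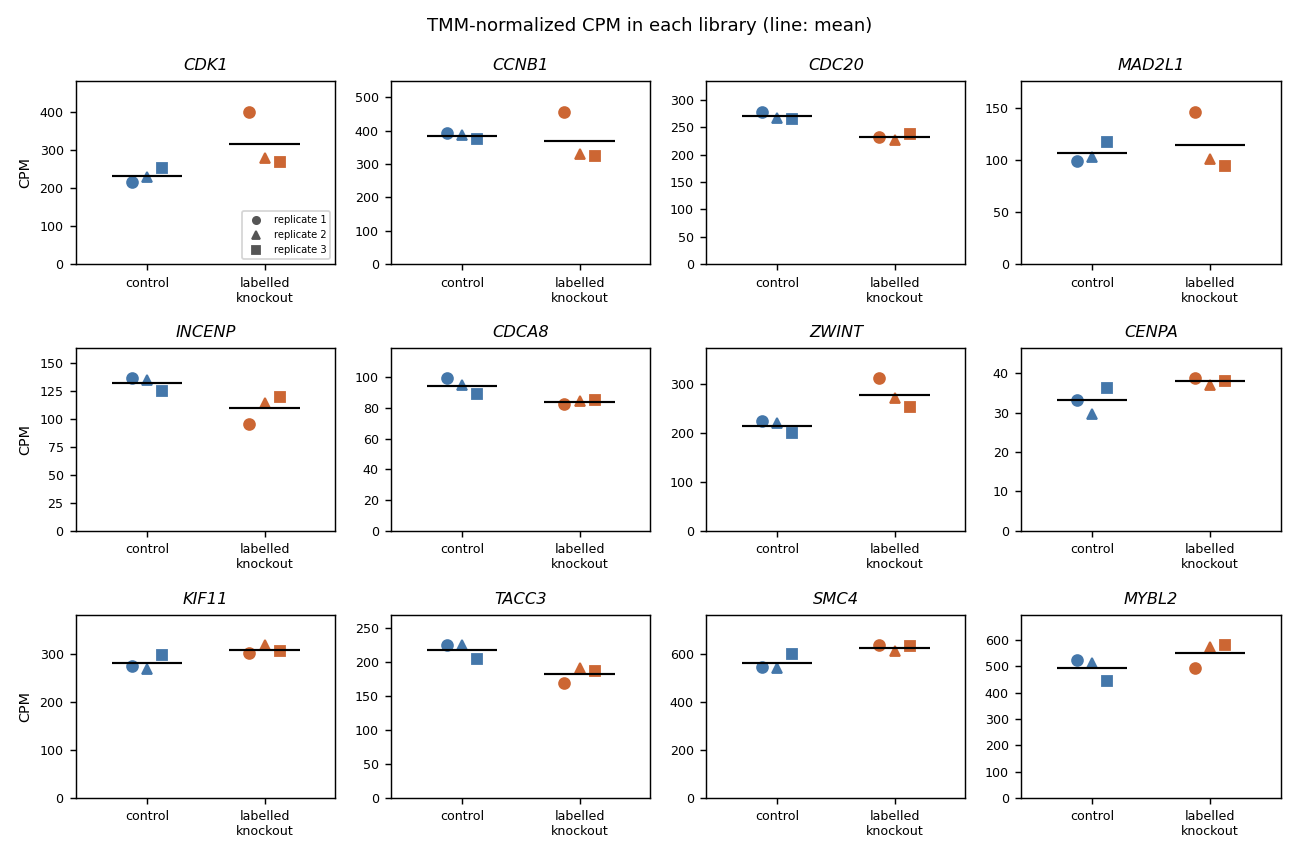
TMM-normalized CPM (y axis, from 0) of 12 of the 60 genes in each library, control in blue and labelled BMAL1 knockout in orange, with the group mean as a line and the replicate as the symbol. Labelled-knockout replicate 1 (circle) stands apart for CDK1, CCNB1 and MAD2L1, while CDC20 and CDCA8 are lower, and ZWINT higher, in all 3 labelled-knockout libraries.

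The kinesin motors, which move chromosomes and spindle microtubules, had a median of 0.04, with 4 of 7 higher. KIF11, which pushes spindle poles apart, was at 276, 270 and 298 CPM in the controls and 303, 319 and 308 CPM in the labelled-knockout libraries. The groups did not overlap, by a margin of a few CPM. Its log2 fold change was 0.14 (SE 0.07; edgeR, adjusted p = 0.357). With all libraries KIF20B had 0.16, the highest of the role, but 0.03 without labelled-knockout replicate 1, where KIF11 was the highest at 0.15. KIF2C, which depolymerises microtubules, had -0.07, the lowest, and KIF23, a motor of the central spindle, had 0.04, or -0.06 without that library. The groups of these 3 genes overlapped.

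The genes of the spindle, midzone and cytokinesis had 5 of 10 higher and a median of 0.03. TACC3, which stabilises spindle microtubules with clathrin, was at 224, 224 and 204 CPM in the controls and 169, 191 and 187 CPM in the labelled-knockout libraries. All labelled-knockout libraries were below the controls. The log2 fold change was -0.26 (SE 0.08; edgeR, unadjusted p = 0.00688, adjusted p = 0.116; DESeq2, adjusted p = 0.0461), and TACC3 overlaps TMEM129 on the opposite strand. NUSAP1 had the highest value, 0.16, which was 0.04 without labelled-knockout replicate 1, and it overlaps OIP5 on the opposite strand. TPX2, which activates Aurora A on the spindle, had -0.04. ANLN, the anillin of the contractile ring, also chosen after its values were seen, was at 1019, 1045 and 1085 CPM in the controls and 1209, 982 and 950 CPM in the labelled-knockout libraries, so that replicate 1 lay above and the others below the controls.

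Condensin and chromosome periphery genes had 5 of 7 higher and a median of 0.02. SMC4, a core ATPase of condensin, was at 548, 543 and 601 CPM in the controls and 636, 613 and 632 CPM in the labelled-knockout libraries. The groups did not overlap, and control replicate 3 lay nearest to the labelled-knockout libraries. For SMC4 the log2 fold change was 0.15 (SE 0.07; edgeR, adjusted p = 0.313), and it overlaps IFT80 and TRIM59 on the opposite strand. NCAPH, another condensin subunit, named because its groups did not overlap, was lower in all labelled-knockout libraries by a log2 fold change of -0.08. MKI67, the surface coat of mitotic chromosomes known as the proliferation marker Ki-67, was at 1017, 1021 and 1004 CPM in the controls and at 942, 1107 and 1045 CPM in the labelled-knockout libraries. Its groups overlapped, with labelled-knockout replicate 1 the lowest of all, and its log2 fold change was 0.02 (SE 0.08; edgeR, adjusted p = 0.908). CDCA3, grouped with this role although it is not a condensin subunit, had its lowest value, -0.10, and NCAPH the next lowest. Without labelled-knockout replicate 1 NCAPG was lowest, at -0.15.

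The factors that turn these promoters on lay on both sides of 0. FOXM1 had -0.13, with 353, 359 and 348 CPM in the controls and 284, 329 and 354 CPM in the labelled-knockout libraries. Without labelled-knockout replicate 1 the value of FOXM1 was -0.05. MYBL2, which encodes B-MYB, had 0.15, with 525, 513 and 446 CPM in the controls and 496, 576 and 580 CPM in the labelled-knockout libraries. For both genes the groups overlapped. LIN9, a subunit of the MuvB core, had 0.20, or 0.07 without labelled-knockout replicate 1, also with overlap, and FOXM1 overlaps ITFG2 on the opposite strand.

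Per length, levels among the 60 genes differed far more than between groups. The mean over the 6 libraries was 188 CPM per kb of exon for MYBL2, 175 for ANLN and 155 for CCNB1, and 6.61 for CDC25C, the lowest. Between groups, CDK1 lay at 136% of the control level, the largest shift of the 60 with all libraries. Without labelled-knockout replicate 1 its log2 fold change of 0.23 was smaller than that of ZWINT, at 0.29, and than the fall of CCNB1, at -0.24.

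The components of DREAM were present in both groups. All 11 genes of the list were tested, 5 were higher and 6 lower, and the median was -0.0027. By edgeR, DESeq2 and limma-voom 0 were called, where 2.51%, 4.69% and 1.72% of all loci were called. At an unadjusted p under 0.05 in edgeR 1 was higher and 0 lower, beside 9.08% and 7.78% of all loci. Groups did not overlap for 3 that were lower and 1 that was higher, beside 11.5% and 11.8% of all loci. E2F4, the repressive E2F, was at 56.8, 58.9 and 52.4 CPM in the controls and 51.4, 51.3 and 52.2 CPM in the labelled-knockout libraries, a log2 fold change of -0.12 (edgeR, adjusted p = 0.486). RBL1 and RBL2, which encode p107 and p130, had 0.04 and -0.06. The MuvB subunits LIN37, LIN52 and LIN54 had 0.10, 0.04 and 0.07. LIN37 was measured at 6.72 CPM in the controls and 7.22 CPM in the labelled-knockout libraries, the lowest of these. Among 22 regulators of CDK1 and subunits of the anaphase-promoting complex, 12 were higher and 10 lower with a median of 0.0056. Of these 22, 0 were called by edgeR, DESeq2 or limma-voom, beside the same shares of all loci. At an unadjusted p under 0.05 in edgeR 2 were higher and 0 lower, again beside 9.08% and 7.78% of all loci. The 22 were 7 higher and 15 lower without labelled-knockout replicate 1, with a median of -0.07. WEE1, the kinase that holds CDK1 inactive, had 0.09.

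Genes that the list left out lay in a similar range. Of 56 further mitotic genes 34 were higher and 22 lower, and the median was 0.02. In edgeR 0 were called, beside 2.51% of all loci. At its unadjusted p under 0.05, 2 were higher and 2 lower, beside 9.08% and 7.78% of all loci. This list turned without labelled-knockout replicate 1, with 17 higher and 39 lower and a median of -0.02. Then edgeR called 1, KPNA2, an importin, where it called 4.21% of all loci. DESeq2 called 1 of the 56, where it called 4.69% of all loci. That was CIT, a kinase of cytokinesis that was lower by a log2 fold change of -0.31. Of the 56, limma-voom called 0, beside 1.72% of all loci. TOP2A, the topoisomerase that etoposide traps, was at 802, 816 and 837 CPM in the controls and 908, 822 and 785 CPM in the labelled-knockout libraries, with a log2 fold change of 0.04. Of 32 E2F and replication genes 19 were higher and 13 lower with a median of 0.01.

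Labelled-knockout replicate 1 held the highest value of 36 of the 60 and the lowest of 11, labelled-knockout replicate 3 the highest of 2 and the lowest of 21, and control replicate 1 the highest of 12 and the lowest of 11. The values of labelled-knockout replicate 1 also moved with base composition over all loci. In the 4526 loci of lowest GC content its median log2 deviation was 0.12, and in the 4526 of highest it was -0.11. Control replicate 3 moved the same way, with 0.06 and -0.10, and the other libraries the opposite way. Among the 60 genes, the 30 of lower GC content had a median deviation of 0.21 in labelled-knockout replicate 1, and the 30 of higher GC content had -0.05. Across the 60 genes the log2 fold change correlated with GC content at r = -0.53 (Spearman's rho -0.54, n = 60 genes, which share the same 6 libraries). Without labelled-knockout replicate 1 it was -0.04 (rho -0.05), and with the GC trend of each library removed -0.32 (rho -0.35). Over the 13578 loci of known GC content, r was -0.06 with all libraries (rho -0.13) and 0.02 with the GC trend removed (rho 0.0035). Over 13574 such loci without labelled-knockout replicate 1, r was 0.08 (rho 0.11). The part of base composition in the single values was not tested beyond this.

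**Figure D5:**
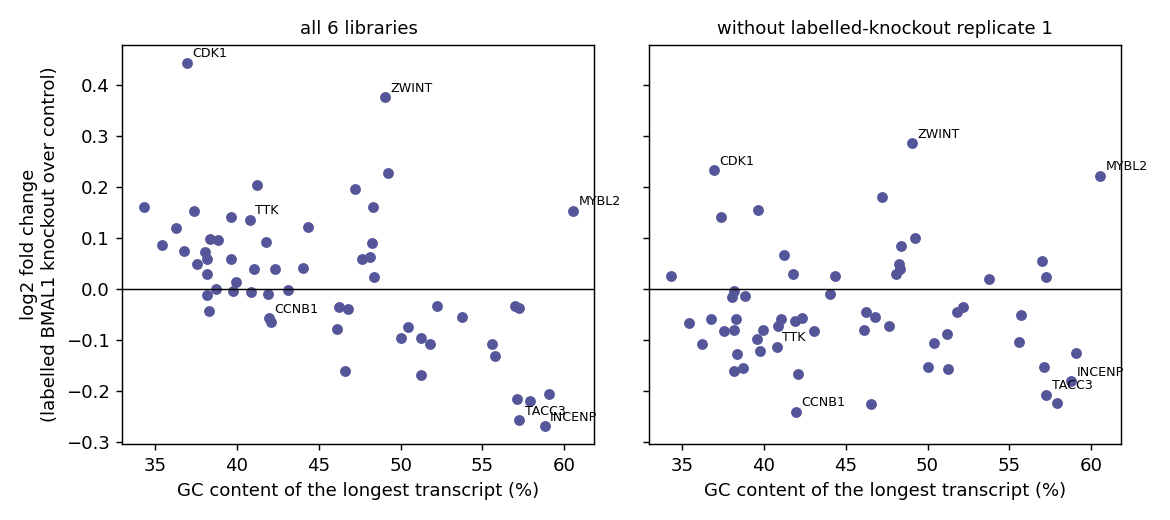
Log2 fold change of each of the 60 genes (y axis, labelled BMAL1 knockout over control) against the GC content of its longest transcript (x axis, percent), from all 6 libraries (left) and without labelled-knockout replicate 1 (right). The correlation across genes was -0.53 on the left and -0.04 on the right.

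Without labelled-knockout replicate 1, the balance of the 60 genes turned. Then 42 lay lower and 18 higher, and the median was -0.06; 17 genes had turned from higher to lower and 3 from lower to higher. The role medians were then -0.05 for the cyclins, -0.11 for the checkpoint, -0.04 for the kinetochore, -0.05 for the kinesins, -0.06 for the spindle and -0.08 for the condensin genes, beside -0.13 for the kinases and 0.07 for the transcription factors. At an adjusted p under 0.05, CCNB1 was lower and ZWINT was higher (edgeR), that is 1 of 60 each way, where 2.26% of all loci were lower and 1.95% higher. With the GC trend removed from all 6 libraries, 33 lay lower and 27 higher with a median of -0.01, INCENP and TACC3 were lower and CDK1 and ZWINT higher at an adjusted p under 0.05 (edgeR), and 7.42% of all loci were called, 614 lower and 488 higher of 14860. With both steps, a combination chosen after seeing the data, the median was -0.05. Then 10 of the 60 were called lower, AURKA, BUB1, CCNB1, CDC20, CDCA8, DLGAP5, INCENP, NCAPG, PLK1 and TACC3. A further 5 were called higher, CDK1, KIF11, MYBL2, SMC4 and ZWINT, and of all 15045 loci tested then 1044 were called lower and 763 higher, or 12.0% together. In each of these fits some mitotic genes were lower and others higher.

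Several of the outlying members lay among neighbours shifted the same way. For each gene the median log2 fold change of its 20 neighbours on each side was taken, and over all loci 95% of such medians lay between -0.14 and 0.19. CDK1 lay among neighbours with a median of 0.28, of which 37 of 40 were higher, and ZWINT among neighbours with a median of 0.26, of which 33 of 40 were higher. Both are on the same arm of chromosome 10. All 6 of the genes that lie on chromosome 10, CDK1, ZWINT, KIF11, KIF20B, BUB3 and MKI67, had values above 0 with all libraries, although the lowest values with a library left out were -0.06 for BUB3 and -0.03 for MKI67. The neighbours of SMC4 and ECT2 on chromosome 3 had medians of 0.22 and 0.21. TACC3 lay among neighbours with a median of -0.21, of which 6 of 40 were higher. Relative to their neighbours, CDK1 was higher by 0.16, ZWINT by 0.11, and TACC3 lower, at -0.04, as was SMC4, at -0.07. The neighbours of KIF11 and CENPA had medians of 0.16 and 0.11, inside the 95% range, with 32 and 34 of 40 higher. Relative to these, KIF11 was at -0.02 and CENPA at 0.09. INCENP and CDC20, by contrast, lay among neighbours with medians of -0.05 each, and at -0.22 and -0.17 relative to them. The cause of these regional shifts was not tested, and DNA copy number was not analysed here.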

How the data were processed

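The gene counts were made by the authors before deposition: reads were trimmed and aligned to hg38 with fastp 0.20.1 and HISAT2 2.0.4, and the counts were deposited unnormalized. The annotation version and the strandedness of the libraries are not given in the sources used here. No per-sample column besides the 6 count columns (0 others) was present.

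Here, loci with few reads were removed with filterByExpr, and groups were compared with edgeR 4.0.16 (TMM, robust quasi-likelihood fit, Benjamini-Hochberg adjustment over all loci kept, threshold 0.05) in R 4.3.3. DESeq2 1.42.0, limma 3.58.1, other filters and scalings, each library left out, and a GC correction (GC known for 91.37% of loci kept) were alternatives. Positions are GENCODE 44. The members and the lists beside them were chosen with earlier results of these data known.

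Named genes are the highest and lowest of each role, a written list of regulators, and companions with an adjusted p under 0.05; others are said to be chosen by their values. Companion lists were DREAM and MuvB, the p21 axis, CDK1 regulators, further mitotic genes, E2F and replication genes, and cell type markers.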

Additional observations from a re-analysis of the deposited data

How the results depend on the processing

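Beside 373 loci called with all libraries by edgeR, 697 were called by DESeq2, 1102 with the GC trend removed, 895 with a replicate block and the GC trend removed, and 142 at a fold change over 2 and unadjusted p under 0.01. Leaving out each library in turn gave 113 (without control replicate 2) to 633 (without labelled-knockout replicate 1); the others were 166 and 141 without control replicates 1 and 3, and 162 and 249 without labelled-knockout replicates 2 and 3.

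Of the 60 genes, 0 were called by edgeR, and 0 to 2 when a library was left out. With library size only, with no low-count filter and with at least 10 counts in every library 1 was called, each time ZWINT. DESeq2 called 3, the GC trend removed gave 4, the replicate block with it also 4, and 8 had an unadjusted p under 0.05. The median log2 fold change of the 60 ranged from -0.0580 (without labelled-knockout replicate 1) to 0.0723 (without labelled-knockout replicate 3) when a library was left out. Groups did not overlap for 12 genes with all libraries and for 13 to 24 when a library was left out, where fewer libraries make overlap rarer. Without labelled-knockout replicate 1 these were 17 lower and 7 higher of the 60, beside 2744 lower and 2916 higher of 14860 loci.

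CDKN1A kept its direction in all 19 alternatives. Its log2 fold change was 0.45 by limma-voom (adjusted p = 0.0721), 0.45 with the replicate block (edgeR, adjusted p = 0.0514) and 0.35 to 0.52 when a library was left out; over the alternatives the adjusted p ranged from 0.00177 to 0.181. That of BMAL1 was 0.50 to 0.70 when a library was left out. The replicate block called 277 loci and 0 of the 60 genes. Libraries of the same number did not vary together (correlations of -0.18, 0.02 and -0.07), so the numbers do not pair.

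Chosen after seeing the data were 3 alternatives. Robust estimation of the dispersion gave the same values as reported and so adds nothing. The fit without robust estimation gave the same fold changes as reported with other p-values, and left CDKN1A at 0.45 (edgeR, adjusted p = 0.0683). With the GC trend removed and labelled-knockout replicate 1 left out, 1807 loci and 15 of the 60 genes were called, the median of the 60 was -0.0512, and NCAPG, at 0.00053 with all libraries, was at -0.14 (edgeR, adjusted p = 0.0294). Of 1140 values of the 60 genes under the 19 alternatives, which include these repeated fold changes, 88 changed sign, and 31 genes kept their sign in all. The cause was not tested in any of these cases.

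With 3 libraries a group, the SE of the 60 genes had a median of 0.09 on the log2 scale. Differences of this size could not be resolved for single genes, and differences several times larger did not pass the threshold either. ZWINT, at 0.38 (SE 0.09), had an adjusted p of 0.0504 in edgeR, and CDC20, at -0.22 (SE 0.07), had 0.128. All 60 had enough reads to be tested in every alternative. Whether replicates were separate cultures is not given in the sources used here, and clone and genotype cannot be told apart. Without an untreated group, the response to etoposide itself was not tested, nor was protein or cell cycle position. For 20 of the 60 genes exons overlap another gene, and whether the counts separate strands is not given.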
